A study of Mus musculus with 9 samples.

Results

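The D-type cyclins Ccnd1, Ccnd2 and Ccnd3, their kinases Cdk4 and Cdk6, the inhibitors Cdkn1a, Cdkn1b, Cdkn1c and Cdkn2c, and the retinoblastoma gene Rb1 were followed in FVB MOE cells treated with estrogen or an estrogen receptor modulator. The 10 genes were chosen by symbol, with earlier results of these data known, and are 10 of the 23332 gene rows measured. Of these 10, 9 passed the filter for testing (1 FPKM or more in 3 or more samples), as did 11339 rows in all, and Cdkn1c did not. FVB MOE cells are a monoclonal line of secretory epithelial cells from the oviduct of FVB mice, so that every value describes 1 clone in culture. All cells, controls included, spent 48 h in hormone-stripped medium before a treatment of 24 h. The treatments were 0.1% DMSO (the solvent), 1 nM 17-beta-estradiol (E2) and 100 nM 4-hydroxytamoxifen (4OHT), the active metabolite of tamoxifen, with 3 samples of each. No sample received E2 and 4OHT together. Replicates carry the numbers 1 to 3, but no label says that they were separate cultures, so the p-values measure only the spread between these samples, which may be technical.

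Passage from G1 into S phase is controlled in large part by the kinases CDK4 and CDK6, which are inactive until a D-type cyclin binds them. The active complexes phosphorylate the retinoblastoma protein, which releases E2F transcription factors to switch on genes for DNA replication. INK4 inhibitors such as p18 (Cdkn2c) bind CDK4 and CDK6 directly, whereas the CIP/KIP inhibitors p21 (Cdkn1a), p27 (Cdkn1b) and p57 (Cdkn1c) bind cyclin-kinase complexes. Cyclin D1 is well known as an estrogen-induced gene in breast cancer cells, and the D cyclins are made from separate genes that are used to different extents in different tissues.

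Each value is an FPKM, which divides the fragments of a gene by its transcript length and by the sequencing depth of the sample and so permits levels of different genes to be set side by side. The sum of FPKM was 522517 to 588640 per sample and 11037 to 11175 rows reached an FPKM of 1. Read totals were not used. Approximate depths were taken from the most common ratio of very low FPKM values between DMSO replicate 1 and each sample. They were 0.82 to 1.19 relative to DMSO replicate 1. Each 4OHT sample (0.82 to 0.92) lay below each DMSO sample (1 to 1.19), so that depth and 4OHT cannot be told apart. Of the markers of epithelial cells, the keratin Krt8 had mean FPKM of 406, 548 and 445 in DMSO, E2 and 4OHT. Epcam (at most 0.138) and Cdh1 (at most 0.422) were near 0 in every sample. Of the 4 secretory markers, Pax8 had means of 119, 133 and 120. Wt1 (26.3 to 45.3) and Msx2 (9.69 to 24.4) were also present, while Ovgp1 was low, at 1.44 to 2.61. Of the 4 ciliated markers measured, Foxj1 stood at 8.95 to 15.9 and Rsph1 at 2.98 to 3.86. Ccdc78 (at most 0.308) and Tekt1 (at most 0.188) were near 0. Of the 6 markers of fibroblasts and stroma, 1 reached an FPKM of 1 in 3 samples, and of the 3 immune genes Ptprc (at most 0.0271) and Cd3e were at or near 0 while Cd68 stood at 3.01 to 4.01. Of the 3 smooth muscle genes Acta2 was high, at 932 to 1720, and Myh11 (at most 0.305) and Des (at most 0.0491) were near 0. The estrogen target Pgr, the progesterone receptor gene, had log2 fold changes against DMSO of 2.70 in E2 and 0.55 in 4OHT, with limma Benjamini-Hochberg adjusted p of 0.182 and 1 without and of 0.000402 and 0.355 with the replicate number as a block.

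In the mouse genome (GRCm38, GENCODE annotation) Ccnd1 lies at chr7:144929931-144939925 and Ccnd2 at chr6:127125162-127152193, both on the minus strand, and Ccnd3 at chr17:47505051-47599691 on the plus strand. Cdk4 lies at chr10:127063534-127067920, Cdkn1a at chr17:29090976-29100727 and Cdk6 at chr5:3341485-3531008, all on the plus strand. RefSeq promoter windows of 250 bases before the start (GRCm38.p6) were held for 6 of the 10 genes, namely Ccnd3, Cdk4, Cdk6, Cdkn1a, Cdkn1b and Cdkn2c. That of Cdk4, the most abundant of the genes, is shown up to the last base before the annotated first exon. So is the first of 2 windows held for Cdkn1a, a classical p53 target. Capitals mark matches on either strand. In Cdk4 they mark the E-box CACGTG and the GC box GGGCGG, which here reads on the other strand. They also mark GGTCA, 1 arm of the estrogen response element, which overlaps an E-box in both places where it occurs. In Cdkn1a they mark a 10-base p53 motif, 1 arm of a p53 site, which was added after the sequences were seen.
Cdk4, chr10:127063285-127063533, plus strand: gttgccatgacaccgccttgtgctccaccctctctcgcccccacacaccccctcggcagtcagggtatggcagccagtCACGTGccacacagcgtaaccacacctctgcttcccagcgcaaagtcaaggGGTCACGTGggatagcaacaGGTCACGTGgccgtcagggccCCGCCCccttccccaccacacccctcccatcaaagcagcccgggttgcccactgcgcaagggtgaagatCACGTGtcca
Cdkn1a, chr17:29090729-29090975, plus strand: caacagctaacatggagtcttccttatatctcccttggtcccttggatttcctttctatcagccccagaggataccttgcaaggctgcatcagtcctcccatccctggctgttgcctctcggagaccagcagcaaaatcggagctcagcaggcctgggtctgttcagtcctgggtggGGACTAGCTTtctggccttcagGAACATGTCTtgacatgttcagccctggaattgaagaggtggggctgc

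The Cdk4 window held 4 E-boxes, the sequence bound by MYC and related factors, where 6.02% of 32851 promoter windows of the same length held at least 1. It also held 2 arms of the estrogen response element, present in 35.2% of windows, and 1 GC box, present in 32.7%. The Cdkn1a window shown held 2 of the 10-base p53 motifs, where 7.13% of windows held at least 1. The other Cdkn1a window, at chr17:29093519-29093768, held 0 of them and 2 GC boxes. No window of the 6 genes held a full estrogen response element, which 0.0639% of all windows held. Sites for AP-1 (TGANTCA), CRE (TGACGTCA), E2F (TTTNNCGC) and NF-kappaB were also searched, and neither printed window held a match. These matches describe letters in the windows and were not measured as binding.

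Cdk4 was the most abundant of the genes, with a mean FPKM of 544.1 over the 9 samples, above 98.6% of the genes tested. Ccnd1 followed at 172.6 and Cdkn1a at 115.2. Ccnd2, at 72.4 over 8 samples, and Ccnd3, at 67.98, were neighbours whose ranges overlapped. Cdkn1b stood at 37.1 and Cdk6 at 28.2, so that Cdk4 exceeded Cdk6, the other kinase that pairs with D cyclins, by 16.3 to 24.4 times in single samples. Cdkn2c, at 9.89, and Rb1, at 6.78, were the lowest of the 9 genes tested, with Rb1 above 30.0% of the genes tested. Cdkn1c, which encodes p57, was listed at 0 in 8 samples and at 0.0136 in DMSO replicate 3, and was not tested. Ccnd1 varied most, with a highest value 3.26 times its lowest.

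**Figure D1:**
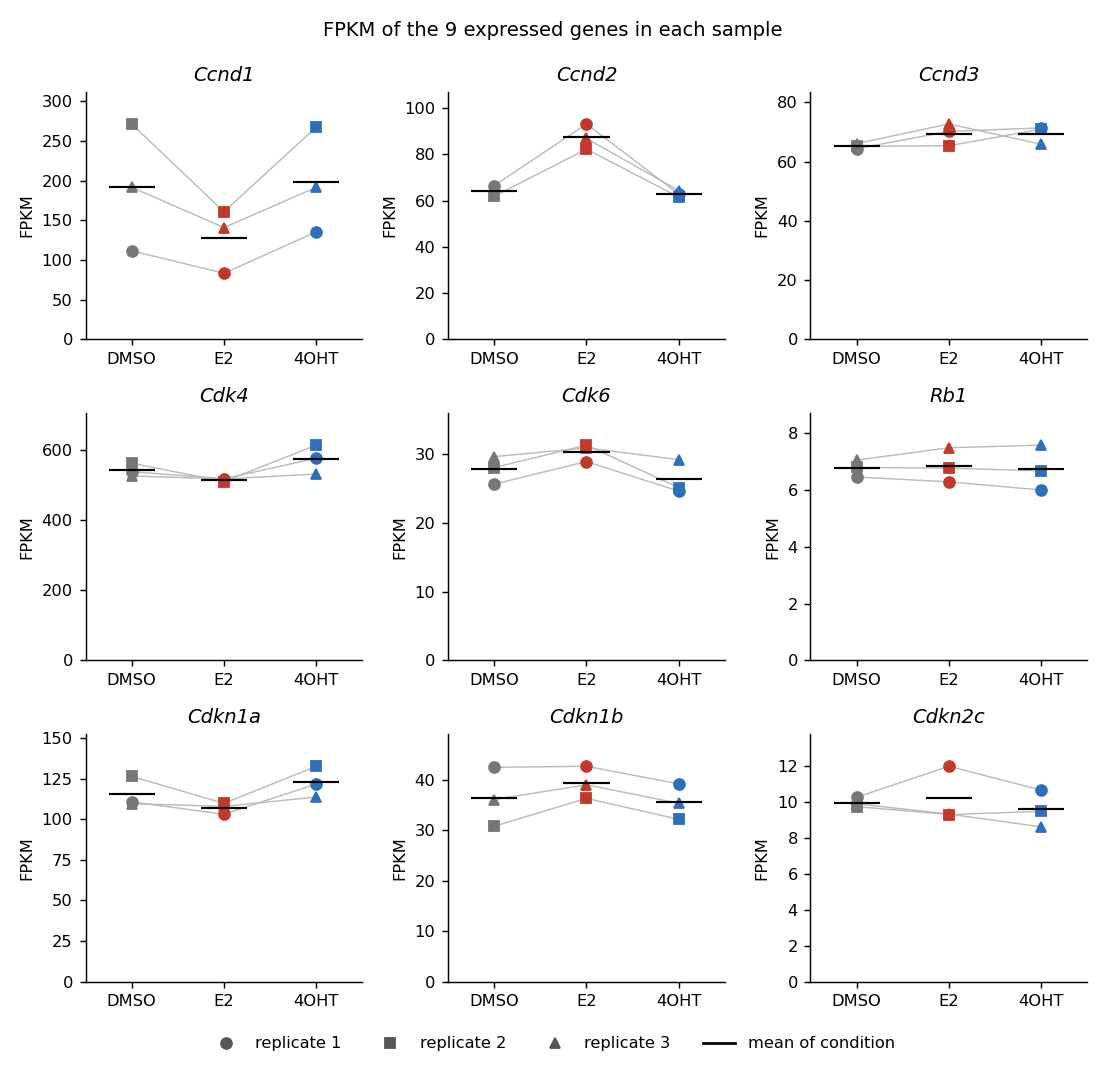
FPKM (y axes, each from 0) of the 9 expressed genes in DMSO, E2 and 4OHT, with 1 point per sample, grey lines joining samples of the same replicate number and black bars for the mean of a condition. The Ccnd1 points spread by replicate number and dip in E2 within each number, the 3 Ccnd2 points of E2 (82.3 to 93.1) sit above the others, and the DMSO replicate 3 value of Ccnd2, listed at 0, is not drawn.

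Under E2, each Ccnd2 value lay above every DMSO and 4OHT value, with a mean 1.36 times that of DMSO, and Ccnd1 was lower within each replicate number, with a mean 0.670 times that of DMSO. Ccnd3 ranged from 64.3 to 72.7 over all samples and passed no threshold. Against DMSO, the Ccnd2 call passed with a block for the replicate number and narrowly without it (limma adjusted p = 0.0499). The call without the block was lost when any sample or replicate number was left out. Both Ccnd2 calls were lost with the 0 of DMSO replicate 3 kept as a value. The Ccnd1 call passed with the block and not without it. No gene of the 10 was called between 4OHT and DMSO. In bulk samples such as these, fewer cells of a type and less RNA per cell cannot be told apart.

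Ccnd2 had FPKM of 66.5 and 61.9 in DMSO replicates 1 and 2, of 93.1, 82.3 and 86.9 in the E2 samples and of 62.8, 61.5 and 64.4 in the 4OHT samples. DMSO replicate 3 was listed at exactly 0 and was set apart as missing, since the gene had an FPKM of at least 61.5 in the other 8 samples and such zeros occurred in 29 to 48 expressed rows of each sample. The E2 samples lay above all others without overlap, while the DMSO and 4OHT samples overlapped. DMSO averaged 64.2 ± 3.24 (SD, n = 2), 4OHT 62.9 ± 1.43 (SD, n = 3) and E2 87.4 ± 5.46 (SD, n = 3), so that the ratio of means was 1.36 for E2 against DMSO and 1.39 for E2 against 4OHT. On the scale of log2(FPKM + 1), the difference was 0.44 (SE 0.0682) for E2 versus DMSO, with an adjusted p of 0.0499 in limma with Benjamini-Hochberg adjustment over 11338 genes. With the replicate block it was 0.43 (SE 0.0467, limma adjusted p = 0.00215). Against 4OHT it was 0.47 (SE 0.061), with limma adjusted p of 0.0461 without and 0.00129 with the block, and E2 was higher in 3 of 3 pairs, by 1.48, 1.34 and 1.35 times. The call against DMSO without the block lay close to the threshold and was lost in each of the 12 fits that left out 1 sample or 1 replicate number, where the limma adjusted p ran from 0.0817 to 0.514 and the log2 difference from 0.39 to 0.49. Against 4OHT it was kept in 1 of these 12 fits, that without DMSO replicate 1, with limma adjusted p from 0.0422 to 0.543. In any fit without DMSO replicate 1 or 2, Ccnd2 keeps only 1 DMSO value. The blocked comparison with DMSO rests on 2 pairs. With the block and replicate number 3 left out, the log2 difference against DMSO was 0.44 (limma adjusted p = 0.0187). Without replicate number 1 or 2 it was 0.41 or 0.45. Against 4OHT the blocked log2 difference ran from 0.42 to 0.49 with any 1 replicate number left out. With the 0 kept as a value, the log2 difference against DMSO became 2.45 and no call was made, with limma adjusted p of 0.594 without and 0.255 with the block against DMSO, and of 0.909 and 0.826 against 4OHT.

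Ccnd1 had FPKM of 111, 271 and 192 in DMSO replicates 1 to 3, of 83.2, 161 and 141 in E2, and of 135, 267 and 192 in 4OHT. The conditions overlapped. Values differed by replicate number, at 83.2 to 135 for replicate 1, 161 to 271 for replicate 2 and 141 to 192 for replicate 3. The ranges of replicates 2 and 3 overlapped. The mean over the 3 conditions was 110.0 for replicate 1, 233 for replicate 2 and 175 for replicate 3. Within a replicate number E2 was the lowest in all 3, at 0.747, 0.592 and 0.735 of DMSO and at 0.614, 0.601 and 0.735 of 4OHT. E2 averaged 128 ± 40.2 (SD, n = 3), DMSO 191 ± 79.9 (SD, n = 3) and 4OHT 198 ± 66.3 (SD, n = 3), so that E2 stood at 0.670 of DMSO and 0.647 of 4OHT. The log2 difference for E2 versus DMSO was -0.54 (SE 0.379, limma with Benjamini-Hochberg adjusted p = 0.641) without the block. With the block its SE was 0.0775 and the limma adjusted p was 0.00411. For E2 versus 4OHT the log2 difference was -0.62, with limma adjusted p of 0.508 without and 0.00289 with the block. With the block and any 1 replicate number left out, the call held in 3 of 3 fits for each contrast, with limma adjusted p of 0.016 to 0.0338 against DMSO and 0.0143 to 0.0233 against 4OHT.

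Ccnd3 had FPKM of 64.3 to 66.1 in DMSO, 65.3 to 72.7 in E2 and 65.8 to 71.3 in 4OHT, and the 3 ranges overlapped. Its log2 difference was 0.09 for E2 versus DMSO, with a 95% confidence interval of -0.03 to 0.20 with the block, and 0.00014 for E2 versus 4OHT. Neither passed the threshold, with limma adjusted p of 0.612 without and 0.258 with the block against DMSO.

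In the comparison of E2 with DMSO, 1 of the 9 genes was called without the block, where 0.556% of 11338 genes were called, and 2 of the 9 were called with it, where 17.7% were. Of the 8 genes with 3 complete pairs, 6 moved the same way in all 3, where 52.7% of all genes did. The median absolute log2 difference was 0.108 over the 9 genes and 0.0846 over all genes tested. Because the genes were chosen with earlier results of these data known, the shares here and below are descriptions and not tests. For the block, same-numbered samples deviated together from their condition means in 9 of 9 pairs, with correlations of 0.205 to 0.701 over 11153 genes. Differently numbered samples had correlations of -0.471 to 0.146. The highest of these were of DMSO replicate 2 with 4OHT replicate 3 (0.146) and with E2 replicate 3 (0.106).

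Ccnd1 made up 46.0% and 68.1% of the summed D cyclin FPKM in DMSO replicates 1 and 2, 33.8%, 52.1% and 46.9% in the E2 samples, and 50.2%, 66.9% and 59.5% in the 4OHT samples. Ccnd2 made up 27.4% and 15.5% in DMSO, 37.8%, 26.7% and 28.9% in E2, and 23.3%, 15.4% and 20.0% in 4OHT. Within each replicate number that could be compared, E2 had the lowest Ccnd1 share and the highest Ccnd2 share, and in E2 replicate 1 Ccnd2 exceeded Ccnd1, with a ratio of Ccnd1 to Ccnd2 of 0.893 against 1.68 in DMSO replicate 1. The shares are ratios of the same FPKM and were not tested separately.

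**Figure D2:**
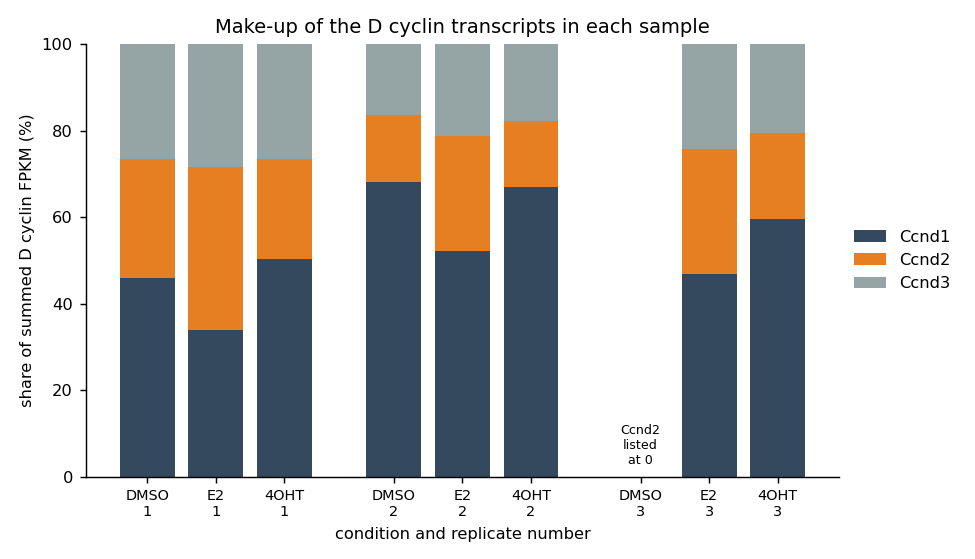
Share of the summed FPKM of Ccnd1, Ccnd2 and Ccnd3 (y axis, percent) in each sample, grouped by replicate number on the x axis, with 1 stacked bar per sample. In each replicate number the E2 bar has the smallest Ccnd1 segment (33.8%, 52.1% and 46.9%) and the largest Ccnd2 segment, and DMSO replicate 3 has no bar because its Ccnd2 was listed at 0.

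Neither kinase was called for E2 versus DMSO in either fit. Cdk4 had FPKM of 538, 563 and 526 in DMSO, 518, 510 and 518 in E2, and 577, 614 and 532 in 4OHT. The E2 samples lay below all DMSO and all 4OHT samples. The log2 difference was -0.07 for E2 versus DMSO, with limma adjusted p of 0.700 without and 0.296 with the block, and -0.15 for E2 versus 4OHT, with 0.408 and 0.0518. The latter was called with the block and equal upper quartiles or equal FPKM totals (limma adjusted p of 0.0306 and 0.0315). Of the 8 genes with all 6 values, Cdk4 was the 1 whose E2 and DMSO samples did not overlap, where 15.2% of 11177 genes did not.

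Cdk6 had FPKM of 25.6, 28.1 and 29.6 in DMSO, 28.9, 31.3 and 30.9 in E2, and 24.6, 25.1 and 29.2 in 4OHT. E2 was the highest of the 3 conditions within each replicate number, although the ranges overlapped. The log2 difference was 0.13 for E2 versus DMSO, with limma adjusted p of 0.608 without and 0.0998 with the block. Against 4OHT it was 0.20, with limma adjusted p of 0.397 without and 0.0238 with the block. With the block and 1 replicate number left out, the call against 4OHT held in 1 of 3 fits, that without replicate 3, with limma adjusted p of 0.0471 to 0.133.

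Among the inhibitors, Cdkn1a, which encodes p21, had FPKM of 111, 127 and 110.0 in DMSO, 103, 110 and 108 in E2, and 122, 133 and 114 in 4OHT. The E2 samples lay below the 4OHT samples without overlap and overlapped the DMSO samples. The log2 difference for E2 versus 4OHT was -0.19, with limma adjusted p of 0.398 without and 0.0261 with the block, and with 1 replicate number left out the blocked call held in 1 of 3 fits, that without replicate 3, with limma adjusted p of 0.0496 to 0.146. For E2 versus DMSO it was -0.11, with limma adjusted p of 0.641 without and 0.139 with the block, and of 0.0438 with the block and equal FPKM totals.

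Cdkn1b, which encodes p27, had FPKM of 42.4, 30.8 and 36.0 in DMSO, 42.6, 36.3 and 39.0 in E2, and 39.1, 32.1 and 35.3 in 4OHT. Replicate number 1, the lowest for Ccnd1, was the highest for Cdkn1b, with means over the conditions of 41.4, 33.0 and 36.8 for replicates 1, 2 and 3. It passed no threshold, with a log2 difference of 0.12 for E2 versus DMSO (limma adjusted p of 0.751 without and 0.120 with the block). Cdkn2c ranged from 8.59 to 12.0 and Rb1 from 5.99 to 7.57 over the 9 samples, each with overlapping conditions. Their log2 differences for E2 versus DMSO were 0.02 (limma adjusted p = 0.952, 95% confidence interval with the block -0.12 to 0.17) and 0.01 (limma adjusted p = 0.970, 95% confidence interval with the block -0.09 to 0.12).

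Between E2 and 4OHT, 1 of the 9 genes was called without the block, where 0.309% of 11338 genes were called, and 4 of the 9 with it, where 20.0% were. With the block Ccnd2 and Cdk6 were higher in E2, as were 10.1% of all genes, and Ccnd1 and Cdkn1a lower, as were 9.97%. The groups did not overlap for 3 of the 9 (Ccnd2, Cdk4 and Cdkn1a), where 18.4% of 11182 genes did not. In all 3 pairs 6 of the 9 moved the same way, where 55.6% of all genes did. This comparison shares its E2 samples with the comparison of E2 with DMSO. The summed FPKM of the 6 epithelial markers was 1310 to 1450 in DMSO, 2170 to 2440 in E2 and 1330 to 1570 in 4OHT. Nearly all of this sum came from the keratins Krt7, Krt8, Krt18 and Krt19, since Epcam and Cdh1 were near 0. Krt7 had means of 310, 816 and 323 in DMSO, E2 and 4OHT. The sum, in effect one of keratins, thus moved with E2 as Ccnd2 did. Its part in these results was not tested.

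**Figure D3:**
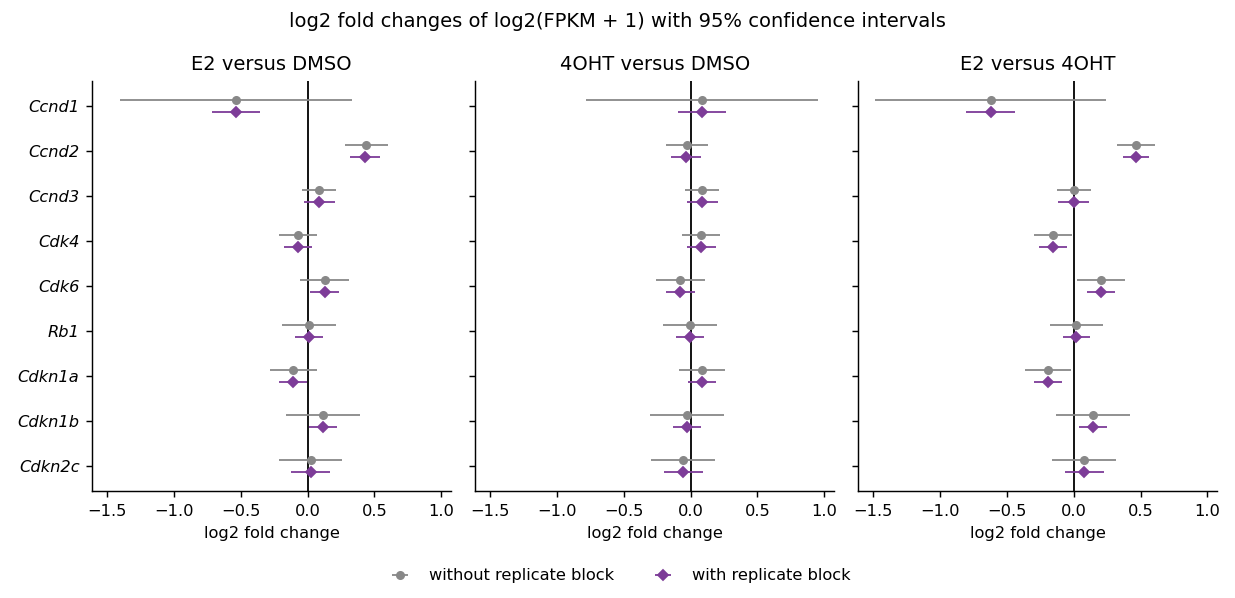
Log2 differences of log2(FPKM + 1) (x axes) for the 9 genes in the 3 comparisons, as points with 95% confidence intervals from limma, without the replicate block in grey and with it in purple. The block narrows the Ccnd1 interval from -1.41 to 0.33 to an interval of -0.72 to -0.36 for E2 versus DMSO, and all intervals of 4OHT versus DMSO include 0.

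Between 4OHT and DMSO, 0 of the 9 genes and 0 of 11336 genes (0%) were called by limma with Benjamini-Hochberg adjustment, with or without the block. At an unadjusted p under 0.05, 0 of the 9 genes passed in either fit, where 2.68% of all genes passed without and 13.7% with the block. The log2 differences were 0.09 for Ccnd1, -0.03 for Ccnd2, 0.09 for Ccnd3, 0.08 for Cdk4 and -0.08 for Cdk6. Those of Cdkn1a, Cdkn1b, Cdkn2c and Rb1 were 0.09, -0.03, -0.06 and -0.0074. With the block, the 95% confidence intervals were -0.10 to 0.27 for Ccnd1 and -0.15 to 0.08 for Ccnd2, beside the 0.43 that Ccnd2 had for E2 in the same fit. The comparisons with E2 and with 4OHT use the same DMSO samples.

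The genes around the D cyclins were counted in 7 lists, first for E2 versus DMSO. These lists, too, were chosen with earlier results of these data known, so their counts are descriptions. None of the 8 G1 partners (cyclins E and A, CDK2 and the CDK-activating kinase among them) was called in either fit. Nor was any of the 4 genes listed as other inhibitors (Cdkn2a, Cdkn2b, Cdkn2d and Cdkn3). The median log2 differences were -0.03 and -0.01, beside -0.0021 over all genes. Of the 15 tested members of the RB family, its E2F partners and their MuvB partners, 0 were called without and 1 with the block, where 17.7% of all genes were. That was E2f6, which encodes an E2F that represses transcription and had a log2 difference of 0.18 (limma adjusted p = 0.508 without and 0.0159 with the block).

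The 30 E2F target genes encode replication factors and enzymes of nucleotide supply. In E2, 29 of 30 log2 differences were below 0, with a median of -0.19 beside -0.0021 over all genes. They did not all move alike in the 3 pairs. Mcm4, Pcna, Rrm1 and Rrm2, for example, were higher in E2 than in DMSO in 1 pair. None passed without the block and 5 were called lower with it, where 6.01% of all genes were. Mcm7, a subunit of the replicative helicase, averaged 85.1 ± 15.5 FPKM (SD, n = 3) in DMSO against 64.2 ± 1.77 (SD, n = 3) in E2, with a log2 difference of -0.39 and a limma adjusted p of 0.331 without and 0.0133 with the block. Mcm3, of the same helicase, had -0.33, the thymidine kinase gene Tk1 -0.34 and Gins1, of the GINS complex of the fork, -0.31, with limma adjusted p with the block of 0.0225, 0.0384 and 0.0287. Between E2 and 4OHT, 11 of the 30 were called lower with the block, where 9.97% of all genes were, and 0 without it, and the median was -0.25. The genes were described as a list and no test of the list was made.

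Of 18 genes for turnover and assembly of D cyclin and CIP proteins, 0 passed without the block, and 2 rose and 2 fell with it, where 11.7% of all genes rose and 6.01% fell. Cryab, the small heat shock protein alpha-B crystallin, a cofactor of an F-box ligase for cyclin D1, averaged 1967 ± 308 FPKM (SD, n = 3) in DMSO against 3029 ± 303 (SD, n = 3) in E2, with a log2 difference of 0.63 (limma adjusted p = 0.102 without and 0.000213 with the block). Gsk3b, whose kinase marks cyclin D1 for export and degradation, had 0.28. Lower in E2, Cks1b, a cofactor of p27 ubiquitination, had -0.23 and the kinase chaperone Cdc37 had -0.17, with limma adjusted p with the block of 0.00901 for Gsk3b, 0.0473 for Cks1b and 0.0487 for Cdc37.

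Of 27 regulators of D cyclin transcription, 2 rose without the block, Fos and Atf3, where 0.520% of all genes rose, and with it 11 rose and 2 fell, where 11.7% of all genes rose and 6.01% fell. The immediate early gene Fos, a subunit of AP-1, averaged 3.18 ± 0.790 FPKM (SD, n = 3) in DMSO against 9.16 ± 1.80 (SD, n = 3) in E2, with a log2 difference of 1.28 (limma adjusted p = 0.0282 without and 3.47e-05 with the block). Between 4OHT and DMSO its log2 difference was 0.38 (limma adjusted p = 0.0984 with the block). Atf3, a stress-induced relative of AP-1, rose by 0.48 for E2 versus DMSO (limma adjusted p = 0.00912 without and 0.000345 with the block). With the block, Stat5a (0.68), Fosb (0.62) and the transcription factor gene Ets2 (0.52) rose, and Myc (-0.26) and Fosl1 (-0.42) fell, with limma adjusted p of 0.00145, 0.0021, 0.00199, 0.0274 and 0.0476.

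Of 24 genes of the p53 pathway, of which Cdkn1a is a classical target, 0 passed without the block and with it 2 rose and 5 fell, beside 11.7% and 6.01% of all genes. Trp53, which encodes p53, had a log2 difference of -0.29 for E2 versus DMSO (limma adjusted p = 0.00232 with the block), Gadd45b -0.32 (0.0121) and Plk2 -0.27 (0.0117), while the growth arrest gene Gadd45a had 0.43 (0.00273). Between E2 and 4OHT with the block, 1 G1 partner (Ccne1) was lower and 0 of the other inhibitors were called. In the RB and E2F list 1 gene was higher and 1 lower, and in the turnover list 2 and 3. Among the regulators 10 were higher and 4 lower, and in the p53 pathway 1 and 8. Of all genes, 10.1% were higher and 9.97% lower. Without the block, 1 gene of these lists was called, Atf3. Between 4OHT and DMSO, no gene was called in any of the 7 lists in either fit.

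**Figure D4:**
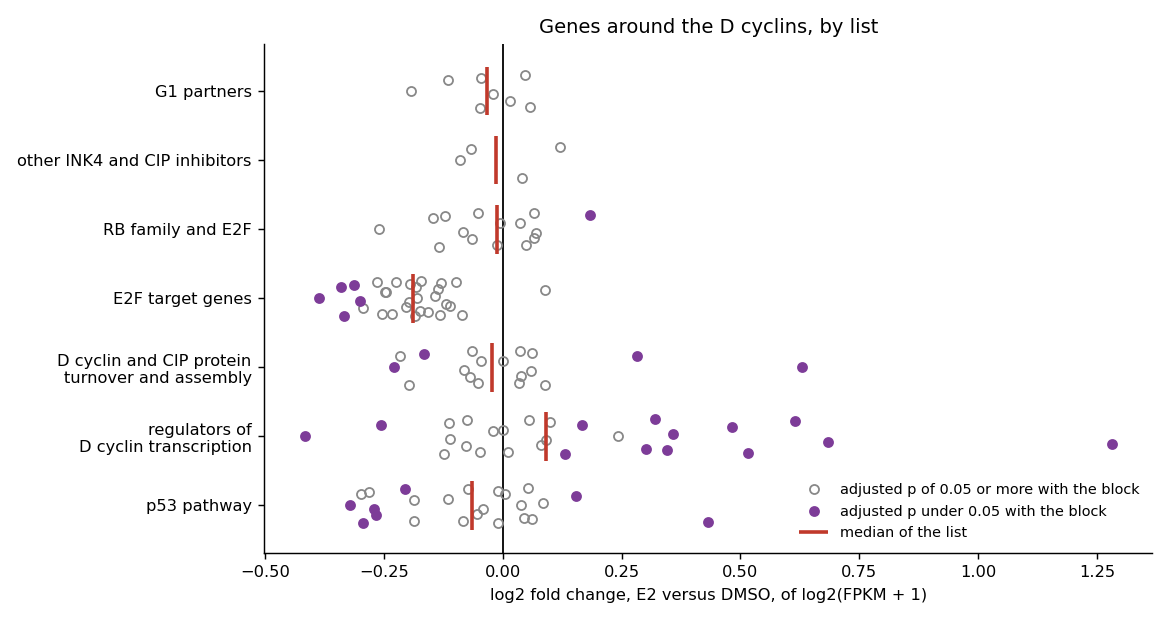
Log2 differences of log2(FPKM + 1) for E2 versus DMSO (x axis) of each tested gene in the 7 lists (y axis), with filled points for an adjusted p under 0.05 with the block and red bars for list medians. The E2F target genes lie almost wholly to the left of 0, with a median of -0.19, and Fos, at 1.28, is the point farthest to the right.

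The genes whose centred log2(FPKM + 1) values ran closest to those of the D cyclins were found by the root mean square difference over samples. For Ccnd1 they were Psat1 (0.107), Tnfaip2 (0.144) and Shmt2 (0.144) over 9 samples, beside a SD of 0.525 of Ccnd1 itself. Psat1 and Shmt2 encode enzymes of serine and glycine metabolism. For Ccnd2 they were Pld2 (0.0441), Dnase1l1 (0.0566) and Trpv4 (0.0597) over 8 samples, beside a SD of 0.227. For Ccnd3 and Cdkn1a, whose SDs were only 0.0633 and 0.111, the closest were Fbxo31 (0.0235), Dynlt1b (0.0253) and Rbm18 (0.0261), and Eif3l (0.0257), Mrps12 (0.0269) and Chchd5 (0.0292), respectively. The points share libraries and replicate numbers, and no test was made of these likenesses.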

How the data were processed

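RNA from 9 samples (3 per condition) was selected by oligo-dT, made into directional single-end libraries and sequenced. Per the labels and the study's methods, the authors aligned the reads to mm10 with TopHat2 (2.0.8b), and estimated known genes of a UCSC annotation with Cufflinks; Cuffdiff 2.1.1 is named in the submitters' processing notes. The deposited values are FPKM; read counts were not used, and whether a further scaling between libraries entered them is not given in the sources used here. Samples were grouped by their labels.

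Rows that reached 1 FPKM in 3 or more samples were tested as log2(FPKM + 1) with limma 3.58.1 in R 4.3.3 (lmFit, eBayes with a trend), 1 fit over all 9 samples without a block, as the study's methods use none, with Benjamini-Hochberg adjustment within each comparison and a call at an adjusted p under 0.05. Fold changes on this scale understate those of low genes. An FPKM of exactly 0 was treated as missing where a row's median nonzero FPKM was at least 5 and it was above 0 in at least 5 samples, which held for 186 rows. The numbers in the labels were taken to pair the samples because all 9 correlations of same-numbered samples exceeded 0.1. Correlations of differently numbered samples reached 0.146. The blocked values are printed where they change a call. Alternatives were a pseudocount of 0.1, no filter, upper-quartile or total scaling, 6 samples only, zeros kept, robust variance, the block, and samples left out; the block with another scaling or with a replicate number left out was added after seeing the data. The script was tested on simulated data. Read totals were not used and no counting interval is given. Rows that share a symbol (362 symbols) were kept apart.

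The 10 genes and the lists were chosen with earlier results of these data known. Genes named from each list were up to 4 with the largest E2 versus DMSO change among those called in either fit and moving alike in 3 pairs; others, such as Atf3, Myc and Fosl1, were named after their values were seen. Promoter windows came from RefSeq tables (GRCm38.p6) and gene positions from GENCODE (GRCm38).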

Additional observations from a re-analysis of the deposited data

How the results depend on the processing

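For E2 versus DMSO, 63 genes were called, against 39 without the filter on low values, 37 with equal FPKM totals, 9 in the 6 samples compared, 2005 with the replicate block, 1702 with block and zeros kept, 2342 with block and equal upper quartiles and 2372 with block and equal totals. Leaving out samples gave 3 to 159 without the block and 539 to 1210 with it. Of the cell cycle genes 1 was called, and 0 with a pseudocount of 0.1, no filter, equal upper quartiles or totals, 6 samples or zeros kept, 2 with the block alone or with equal upper quartiles, 3 with block and equal totals, and with samples left out 0 in each of 12 fits without the block and 2 in each of 3 with it. For E2 versus 4OHT, 35 genes were called, against 9 without the filter, 13 in 6 samples, 18 with zeros kept, 2273 with the block, 1840 with block and zeros kept, 2484 and 2382 with block and equal upper quartiles or totals, and with samples left out 0 to 90 without the block and 660 to 739 with it. Of the cell cycle genes 1 was called, and 0 without the filter, with equal totals, 6 samples or zeros kept, 4 with the block, 3 with block and zeros kept, 5 with block and equal upper quartiles or totals, and with samples left out 0 to 1 without the block and 2 to 4 with it. For 4OHT versus DMSO, where 0 were called, 6 samples gave 2 genes and samples left out 0 to 2 without the block and 3 to 8 with it. The cause of these differences was not tested.

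Sign changes were limited to log2 differences that were never called. For E2 versus DMSO, Cdkn2c became -0.00056 with equal upper quartiles and Rb1 -0.0092, or -0.0086 with equal totals, with or without the block. With samples left out they ran from -0.088 to 0.079 and from -0.045 to 0.065. For 4OHT versus DMSO, Ccnd2 became 1.98 with zeros kept, with or without the block. With samples left out, Ccnd1 ran from -0.26 to 0.38, Ccnd2 from -0.078 to 0.024, Cdkn1b from -0.14 to 0.086, Cdkn2c from -0.13 to 0.011 and Rb1 from -0.083 to 0.064. For E2 versus 4OHT, Ccnd3 ran from -0.070 to 0.059, Cdkn2c from -0.032 to 0.15 and Rb1 from -0.051 to 0.096. Where a left-out DMSO sample or replicate number leaves Ccnd2 with 1 DMSO value, that value is assumed to vary like the other groups. That covers the blocked fits without replicate number 1 or 2, whose Ccnd2 calls are counted above. Over 702 combinations of gene, comparison and alternative, 598 kept their direction and side of the threshold, 27 gained and 35 lost a call, and 42 changed sign. The replicate block alone changed no call of the cell cycle genes beyond those given for Ccnd1, Cdk6 and Cdkn1a. Together with another scaling it added calls of Cdk4 for E2 versus 4OHT (limma adjusted p of 0.0306 with equal upper quartiles and 0.0315 with equal totals) and of Cdkn1a for E2 versus DMSO (0.0438 with equal totals). Read counts and read totals were not used here, and the smallest change detectable for Rb1 and Cdkn2c, the lowest genes tested, was not determined.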
